A study of Mus musculus with 13 samples.

Results

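The 8 germinal centre genes described here are Bcl6, S1pr2, Il21, Gcsam, Mybl1, Rgs13, Nuggc and Fas, each matched by its Ensembl identifier in GENCODE M21 to 1 of the 49315 rows of the count tables. They were followed in whole tumour-draining lymph nodes and whole tumours of female mice bearing B16F10, a mouse melanoma line. The node groups were 3 Foxp3Ctrl and 3 Foxp3ΔJag1 libraries, and there were 3 Foxp3Ctrl tumours, whose library names carry the mouse codes of the control nodes. Foxp3ΔJag1 mice were Jag1 fl/fl, Jag1 encoding the Notch ligand Jagged-1, and carried the Foxp3eGFP-Cre-ERT2 allele, whose Cre is made where Foxp3, the defining gene of regulatory T cells, is on. Control mice are described as WT in one label and as fl/wt carriers of the same Cre in the design text. Both genotypes received tamoxifen in 5 doses of 0.1 mg per g at 6 to 8 weeks of age and, after a washout of 9 days, 200000 tumour cells into the skin of the left flank at up to 11 weeks of age. The Cre acts in cells that express Foxp3 while RNA came from the whole node, so Jag1 in other cells is not removed.

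A germinal centre is the structure within a B cell follicle in which activated B cells divide, mutate their antibody genes and are selected for affinity with help from follicular helper T cells. BCL6 is the transcriptional repressor needed by both the B cells and the helper cells, IL-21 is a cytokine made by the helper cells, and S1PR2 keeps germinal centre B cells inside the follicle. The other members mark the B cells of the reaction or act in them. In bulk tissue, fewer cells of a type and less RNA per cell cannot be told apart, and this applies to every value below.

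All 8 are protein-coding genes spread over 6 chromosomes of GRCm38, placed by GENCODE M21. On the minus strand lie Mybl1 (chr1:9667415-9700209), Rgs13 (chr1:144138654-144177372), Il21 (chr3:37222759-37232636), S1pr2 (chr9:20962361-20976781) and Bcl6 (chr16:23965052-23988852). Gcsam (chr16:45610380-45622867), Nuggc (chr14:65598546-65648531) and Fas (chr19:34290666-34327772) lie on the plus strand. Mybl1 and Rgs13, and likewise Bcl6 and Gcsam, share a chromosome without being neighbours.

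Each library held between 32117478 and 44540888 counts, and levels are given as CPM, a gene's counts scaled to the total of its library. In the whole node Jag1 did not check the deletion: it averaged 23.2 ± 1.21 CPM in controls and 24.1 ± 3.58 CPM with the deletion (SD, n = 3 each, adjusted p 0.984, edgeR's quasi-likelihood test). Foxp3 averaged 16.0 ± 3.34 and 19.7 ± 3.53 CPM (SD, n = 3 each, adjusted p 0.953, edgeR). B cell identity was plain in the nodes, where 12 B cell genes summed to between 5140 and 5937 CPM, against between 16.2 and 25.2 CPM in the tumours. Foxp3Ctrl node 3 carried more epithelial transcripts than the other nodes, 139 CPM summed over 7 genes against 7.30 to 37.1 CPM. The edgeR p-values set a difference between groups against the spread between these samples.

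Start-site sequences are shown for 4 members. Rgs13 and Gcsam varied together from node to node, S1pr2 was the member higher in tumour, and Bcl6 is the regulator of the group. No level below was related to a sequence. The windows are RefSeq's on GRCm38.p6, each 300 bases long, from 250 bases before to 50 bases after an annotated start, read 5′ to 3′ along the gene. Windows were given for 6 of the 8 members, with 2 starts for Bcl6. Capitals mark matches, on either strand, to 5 motifs: TTCNNNGAA, the core recognised by BCL6 and STAT factors, ATTTGCAT, the octamer of B cell genes, GAGGAA, a PU.1 or SPIB core, CAGGTG, an E-box of E2A, and TAACNG, a MYB core.
Rgs13, chr1:144177323-144177622, minus strand: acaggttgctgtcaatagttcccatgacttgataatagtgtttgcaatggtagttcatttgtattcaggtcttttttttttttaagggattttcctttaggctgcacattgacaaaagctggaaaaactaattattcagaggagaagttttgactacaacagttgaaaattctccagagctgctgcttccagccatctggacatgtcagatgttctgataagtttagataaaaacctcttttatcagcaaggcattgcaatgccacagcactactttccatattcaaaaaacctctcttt
Gcsam, chr16:45610190-45610489, plus strand: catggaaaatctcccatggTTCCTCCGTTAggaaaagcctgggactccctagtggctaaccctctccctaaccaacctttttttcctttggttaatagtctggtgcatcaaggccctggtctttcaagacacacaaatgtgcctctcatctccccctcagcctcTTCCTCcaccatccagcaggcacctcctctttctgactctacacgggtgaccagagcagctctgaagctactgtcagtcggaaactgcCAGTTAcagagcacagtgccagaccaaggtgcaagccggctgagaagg
S1pr2, chr9:20976744-20977043, minus strand: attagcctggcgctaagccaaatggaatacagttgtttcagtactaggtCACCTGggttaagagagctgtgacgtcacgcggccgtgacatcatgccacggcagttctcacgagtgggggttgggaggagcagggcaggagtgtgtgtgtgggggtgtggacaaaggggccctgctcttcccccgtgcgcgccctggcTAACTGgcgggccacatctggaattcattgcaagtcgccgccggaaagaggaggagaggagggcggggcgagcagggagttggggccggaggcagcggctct
Bcl6, chr16:23981234-23981533, minus strand: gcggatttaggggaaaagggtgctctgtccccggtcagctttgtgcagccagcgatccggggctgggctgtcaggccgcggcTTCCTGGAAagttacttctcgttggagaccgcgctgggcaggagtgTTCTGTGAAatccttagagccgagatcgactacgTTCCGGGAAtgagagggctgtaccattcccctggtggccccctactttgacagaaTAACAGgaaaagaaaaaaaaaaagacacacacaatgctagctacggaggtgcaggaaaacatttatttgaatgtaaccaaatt

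The Bcl6 window shown held 3 TTCNNNGAA matches, beginning at -168, -122 and -88 from the start, and 1 TAACAG at -33. The other Bcl6 start held 1 TTCNNNGAA at -118 and 1 GAGGAA at -191, and Fas held 1 TTCNNNGAA at -93. Among 32851 RefSeq windows of the same length, 8.30% held TTCNNNGAA at least once. In Gcsam, the GAGGAA core occurred on the reverse strand at -231 and -86, and TAACNG on the reverse strand at -226 and at 3, the matches at -231 and -226 sharing 1 base. GAGGAA was present in 28.3% of all windows and TAACNG in 23.3%. S1pr2 held CAGGTG on the reverse strand at -201, which 20.2% of windows contain, and TAACTG at -52. No motif of the 5 was found in the Rgs13 and Il21 windows, which says only that these letters are not in them, and the octamer, present in 1.74% of windows, was in none of the 7 windows of members. A match is a run of letters and not evidence of binding.

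The question of the node comparison was whether deleting Jag1 in Foxp3-expressing cells goes with a different level of these genes. None of the 8 members was called between Foxp3ΔJag1 and Foxp3Ctrl nodes at an FDR of 0.05 by edgeR's quasi-likelihood test, and 0 had an unadjusted p under 0.05. DESeq2 also called 0 of them. Over all 18440 genes tested, 0.038% were called. The libraries of the genotypes overlapped for all 8 members, and 7.29% of all genes had groups that did not overlap. The members' median log2 fold change was 0.09, against -0.0045 over all genes. In most members Foxp3ΔJag1 node 3 stood further from the other nodes than the genotype means stood from each other.

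**Figure D1:**
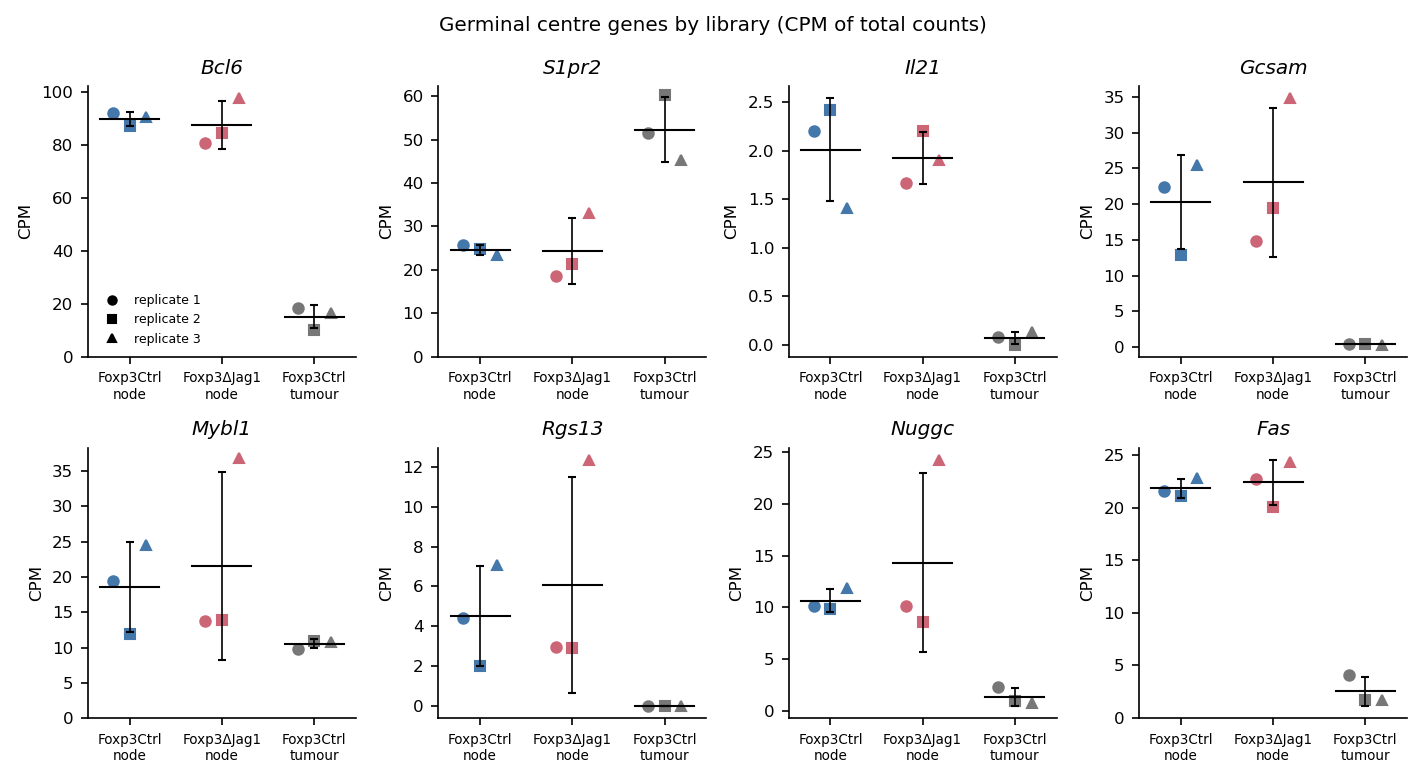
Each panel gives the CPM of 1 gene in the 3 Foxp3Ctrl nodes, 3 Foxp3ΔJag1 nodes and 3 Foxp3Ctrl tumours, with a point per library, a line at the group mean and bars of 1 SD. Foxp3ΔJag1 node 3 is the highest node in 7 of the 8 panels, Il21 being the exception, and in S1pr2 the 3 tumours lie above all nodes.

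Bcl6 stood at 92.1, 87.0 and 90.5 CPM in Foxp3Ctrl nodes 1, 2 and 3, and at 80.7, 84.3 and 97.8 CPM in Foxp3ΔJag1 nodes 1, 2 and 3. The Foxp3ΔJag1 nodes lay on both sides of the controls. The log2 fold change was -0.06 ± 0.084 (SE), with a 95% interval from -0.25 to 0.13 and an adjusted p of 0.956 in edgeR's quasi-likelihood test. Without Foxp3ΔJag1 node 1 it was 0.002. Bcl6 also overlaps the annotated gene Gm37419 on the opposite strand by 21 exonic bases, and the strand setting of the counting is not given in the sources used here.

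Il21 was the scarcest member, with 50 to 104 counts per node. Its levels were 2.2, 2.41 and 1.41 CPM in Foxp3Ctrl nodes and 1.67, 2.2 and 1.91 CPM in Foxp3ΔJag1 nodes. All Foxp3ΔJag1 values fell inside the range of the controls. The log2 fold change was -0.09 ± 0.27 (SE), with a 95% interval from -0.70 to 0.51 and an edgeR adjusted p of 0.975. It was 0.08 without Foxp3Ctrl node 2 and 0.0048 without Foxp3ΔJag1 node 1. Exons of Il21 share 469 bases with Gm12534 on the opposite strand, so their reads may not be separable.

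S1pr2, the receptor that confines B cells to the germinal centre, was at 25.7, 24.7 and 23.5 CPM in Foxp3Ctrl nodes and at 18.6, 21.4 and 33.0 CPM in Foxp3ΔJag1 nodes. The controls were tightly grouped, with 2 Foxp3ΔJag1 nodes below and 1 above them. The log2 fold change was -0.04 ± 0.20 (SE), interval -0.51 to 0.43, adjusted p 0.988 by edgeR, and leaving out a node gave 0.13 without Foxp3ΔJag1 node 1 and 0.04 without Foxp3ΔJag1 node 2. Fas, the death receptor that is a classic surface marker of germinal centre B cells and is also carried by other activated cells, was at 21.6, 21.1 and 22.9 CPM in Foxp3Ctrl nodes and 22.8, 20.1 and 24.4 CPM in Foxp3ΔJag1 nodes. Its groups interleaved, with a log2 fold change of 0.01 ± 0.096 (SE), interval -0.21 to 0.23 and an edgeR adjusted p of 0.991. It was -0.04 without Foxp3ΔJag1 node 3. For Fas and Bcl6 the interval is narrow, and for the genes that follow it is wide.

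Gcsam, which encodes a signalling adaptor that restrains the motility of germinal centre B cells, was at 22.4, 12.8 and 25.4 CPM in Foxp3Ctrl nodes and 14.9, 19.5 and 34.8 CPM in Foxp3ΔJag1 nodes. Mybl1, encoding the transcription factor A-MYB, was at 19.4, 11.9 and 24.6 CPM in controls and 13.8, 13.9 and 36.9 CPM in Foxp3ΔJag1 nodes. Both genes were low in Foxp3Ctrl node 2 and highest in Foxp3ΔJag1 node 3. The log2 fold change of Gcsam was 0.17 ± 0.40 (SE), interval -0.81 to 1.16, edgeR adjusted p 0.969. That of Mybl1 was 0.20 ± 0.50 (SE), interval -1.09 to 1.48, edgeR adjusted p 0.974. Without Foxp3ΔJag1 node 3 they were -0.24 for Gcsam and -0.43 for Mybl1, and without Foxp3Ctrl node 2 they were -0.06 and -0.03.

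Rgs13, a brake on G-protein signalling from chemokine receptors, was at 4.43, 2.02 and 7.05 CPM in Foxp3Ctrl nodes and 2.97, 2.93 and 12.3 CPM in Foxp3ΔJag1 nodes. Nuggc, a nuclear GTPase of germinal centre B cells, was at 10.2, 9.84 and 11.9 CPM in controls and 10.1, 8.63 and 24.2 CPM in Foxp3ΔJag1 nodes. In each gene 1 Foxp3ΔJag1 node stood far above all others while the remaining 2 lay within or below the controls. The log2 fold change of Rgs13 was 0.43 ± 0.76 (SE), interval -1.51 to 2.38, edgeR adjusted p 0.958. That of Nuggc was 0.41 ± 0.40 (SE), interval -0.55 to 1.37, edgeR adjusted p 0.953. Without Foxp3ΔJag1 node 3 they turned to -0.60 for Rgs13 and -0.19 for Nuggc, so the positive estimates rest on that library.

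**Figure D2:**
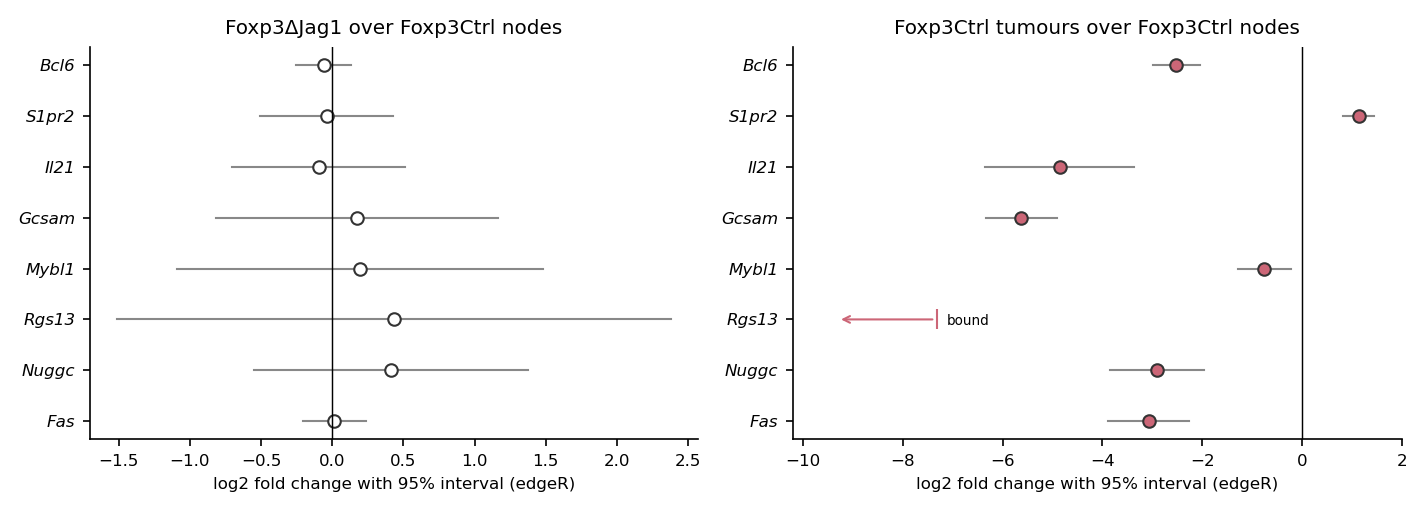
Points are edgeR log2 fold changes with 95% intervals, at left for Foxp3ΔJag1 over Foxp3Ctrl nodes and at right for Foxp3Ctrl tumours over nodes, filled where the adjusted p is under 0.05 (the axes differ in range). At left all 8 intervals span 0, from the narrow Bcl6 and Fas to Rgs13 at -1.51 to 2.38, and at right 7 genes lie below 0 and S1pr2 above it, with Rgs13 drawn as an arrow from its bound because it had no tumour count.

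Across the 6 nodes the members varied to different degrees. The ratio of the highest to the lowest node was 6.11 for Rgs13, 3.09 for Mybl1, 2.81 for Nuggc and 2.71 for Gcsam. It was 1.77 for S1pr2, 1.71 for Il21 and 1.21 for both Bcl6 and Fas, and the median of 15044 genes with a mean of at least 1 CPM in nodes was 1.31, so Bcl6 and Fas lay below it and the other 6 members above. Foxp3ΔJag1 node 3 was the highest node for 7 of the 8 members, while it was the highest for 9.47% of those 15044 genes. In the labels its library name has the word order of the control nodes, which differs from that of Foxp3ΔJag1 nodes 1 and 2, while its mouse code has the letter of the Foxp3ΔJag1 nodes. This pattern was seen in the values and is given as a description.

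The other genes of the reaction did not all share it. Of 20 genes known to act with the members in germinal centre B cells, 7 were also highest in Foxp3ΔJag1 node 3. The margin was small for some, as for Gna13 at 210 CPM in Foxp3Ctrl node 3 and 210.5 CPM in Foxp3ΔJag1 node 3. Mef2b, an activator of Bcl6, was at 3.03 CPM there against 1.20 to 2.26 CPM in the other 5 nodes, and Neil1, a DNA repair glycosylase, at 63.1 CPM against 31.5 to 47.4 CPM. None of 15 follicular helper T cell genes, 10 follicular dendritic cell genes, 12 B cell genes and 10 T cell genes was highest in that node. The 15 helper cell genes, Il21 being counted apart from them, summed to between 1388 and 1535 CPM in the 6 nodes, with 1473 CPM in Foxp3ΔJag1 node 3.

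Rgs13 is also known in mast cells, and 9 mast cell genes summed to 57.1 CPM in Foxp3ΔJag1 node 3 against 52.9 to 103 CPM in the others; the part of mast cells in the level of Rgs13 was not tested. Proliferation genes, 8 of 8, were highest in Foxp3Ctrl node 1, with a sum of 583 CPM there and 499 CPM in Foxp3ΔJag1 node 3, and their part in the pattern was not tested. Foxp3ΔJag1 node 3 was also the deepest library, with 44540888 counts, and the part of depth in the pattern was not tested.

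**Figure D3:**
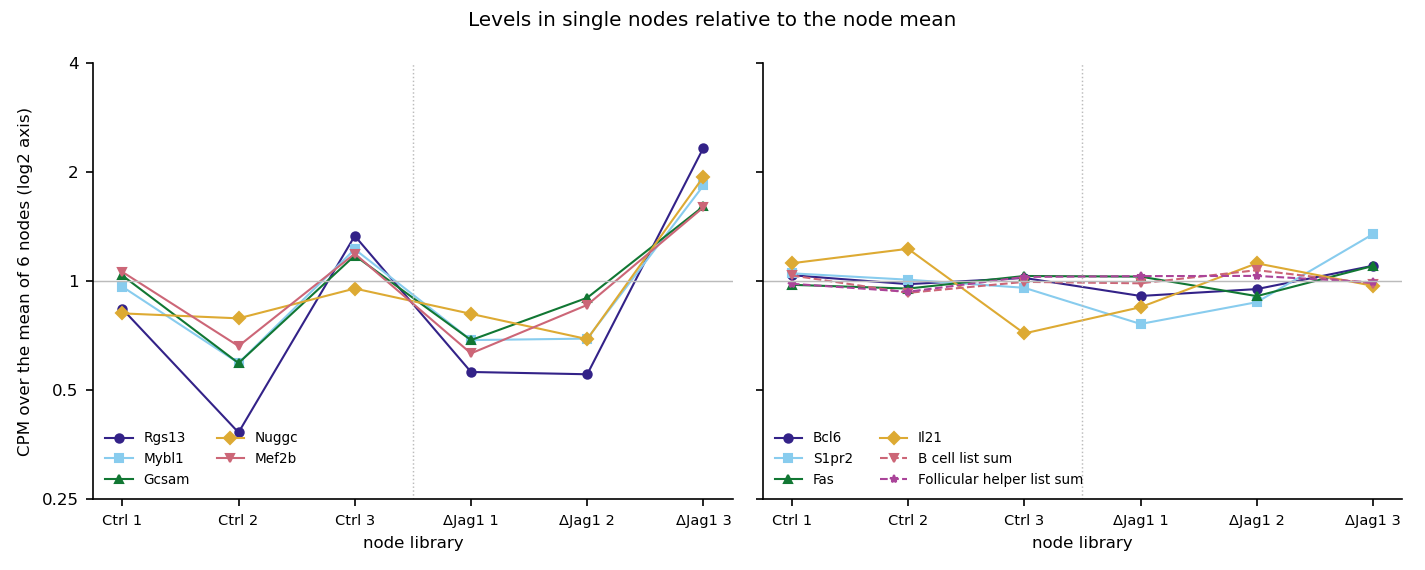
The CPM in each of the 6 node libraries is drawn over the mean of the 6 nodes on a log2 axis, at left for Rgs13, Mybl1, Gcsam, Nuggc and Mef2b, and at right for the other 4 members with the summed B cell and follicular helper lists (dashed). The left-hand genes dip in Foxp3Ctrl node 2 or Foxp3ΔJag1 nodes 1 and 2 and peak in Foxp3ΔJag1 node 3, while the dashed lists stay close to 1.

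Of the 28 pairs of members compared over the 6 nodes, 23 had a positive Pearson correlation. The pairs share members, and 7 of the 8 members were highest in Foxp3ΔJag1 node 3. This count is therefore not a result separate from that pattern, and no share over other gene pairs was computed. Mybl1 and Rgs13 were the closest pair, with r = 0.997 (exact permutation p = 0.00278, adjusted over the 28 pairs 0.0194) and Spearman's rho = 0.943 (exact p = 0.0167, adjusted 0.0778). Without the 2 nodes farthest from the median of Mybl1, r was 0.978. Gcsam and Mybl1 had r = 0.958 (exact permutation p = 0.00139, the smallest the pairings allow, adjusted 0.0194) and rho = 1 (exact p = 0.00278, adjusted 0.0778), with r = 0.883 without the 2 farthest nodes. Rgs13 and Nuggc had r = 0.885 (exact permutation p = 0.00972, adjusted 0.0454) and rho = 0.943 (exact p = 0.0167, adjusted 0.0778), but r fell to 0.214 without the 2 farthest nodes, so their relation rests on those. Il21 had a negative r with Gcsam, Mybl1, Rgs13, Nuggc and Fas, from -0.618 to -0.245. With 3 nodes a genotype, no correlation within a genotype can be given. None of the 28 rank correlations passed adjustment, where even the rho of 1, with an exact permutation p of 0.00278, reached only 0.0778. With 6 nodes the rank test thus left little room for a pair to pass, and no conclusion is drawn from it.

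The genes most like the members were sought by correlating log2(CPM + 1) with the members' mean standardised level over the 6 nodes, which was 1.39 in Foxp3ΔJag1 node 3 and between -0.695 and 0.145 elsewhere. Among 15044 genes, the members included, 70 (0.465%) reached r = 0.9, and with 6 points such values are descriptions only. Mybl1, Bcl6, Nuggc, Rgs13 and S1pr2 were among the 70 and help form the mean they were correlated with. Outside the lists, close ones were Sumo2 (r = 0.980), Nudt3 (0.980), Hmces (0.973) and Sox5 (0.972). Nudt3, which encodes a phosphohydrolase, moved only between 114 and 118 CPM. Hmces, whose product shields abasic sites in DNA, was at 49.0 CPM in Foxp3ΔJag1 node 3 and stayed within 31.1 to 35.7 CPM elsewhere. Of the listed genes Mef2b ranked 24 with r = 0.939.

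The pathways around the members did not differ by genotype in any gene called. Among the 20 germinal centre B cell partners 0 were called, 8 estimates lying above and 12 below 0, and the median log2 fold change was -0.04. Ezh2, a histone methyltransferase of dividing germinal centre B cells, averaged 62.5 ± 2.78 CPM in controls and 57.4 ± 2.53 CPM with the deletion (SD, n = 3 each), adjusted p 0.953 by edgeR. The 15 follicular helper genes (median -0.08) had Cd200, a surface glycoprotein, at 74.0 ± 10.4 and 60.4 ± 3.42 CPM (SD, n = 3 each), adjusted p 0.953 by edgeR. The 10 follicular dendritic cell genes had a median of -0.02, and none was called. Of 13 genes known to be repressed by BCL6, 0 were called, with a median of 6e-04 on the log2 scale. Cd44, an adhesion receptor among them, averaged 151 ± 12.5 and 139.99 ± 5.65 CPM (SD, n = 3 each), adjusted p 0.953 by edgeR.

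In the IL-21 receptor and JAK-STAT list of 8 genes, the FAS signalling list of 9, the list of 8 sphingosine phosphate receptors and their partners, and the 8 tested relatives of Rgs13, 0 genes were called by edgeR between the genotypes. The paralogues of Mybl1 were also not called, Myb standing at 34.0 ± 7.11 and 35.2 ± 3.64 CPM and Mybl2, a gene of dividing cells, at 20.1 ± 4.22 and 16.4 ± 2.59 CPM, controls first (SD, n = 3 each). The 7 plasma cell genes all had estimates below 0, median -0.43, with 0 called. So did the 8 proliferation genes (median -0.29), the 7 endothelial genes (median -0.16) and the 5 tested epithelial genes (median -5.90), with 0 called in each. All 5 epithelial genes had groups that did not overlap and an unadjusted edgeR p under 0.05. Over all 18440 genes tested, 581 had an unadjusted edgeR p under 0.05. The full epithelial list summed to 12.9, 37.1 and 139 CPM in Foxp3Ctrl nodes 1, 2 and 3. In Foxp3ΔJag1 nodes it summed to 7.30 to 10.8 CPM, so the size of the estimates rests mostly on Foxp3Ctrl nodes 2 and 3. Estimates lay above 0 in 8 of the 10 T cell genes. The 9 mast cell genes also had estimates below 0, median -0.995, with 0 called. Of these, 6 had an unadjusted p under 0.05 and 5 had groups that did not overlap, all lower in Foxp3ΔJag1 nodes, where 7.29% of all genes did not overlap in either direction.

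Compared per length, the members covered a wide range. In Foxp3Ctrl nodes the order in CPM per kb of exon was Bcl6 at 13.4 ± 0.388, Fas at 10.6 ± 0.441, Gcsam at 5.91 ± 1.92, Nuggc at 3.75 ± 0.391, Mybl1 at 3.45 ± 1.18, S1pr2 at 3.09 ± 0.142, Rgs13 at 2.72 ± 1.52 and Il21 at 0.382 ± 0.101 (SD, n = 3 each). Neighbours from Gcsam to Rgs13 in that order had overlapping libraries, whereas Bcl6, Fas and Il21 were apart from their neighbours. With the length of the longest protein-coding transcript in place of all exons, an alternative added after the data were seen, Mybl1 and S1pr2 changed places at 3.74 and 3.85 CPM per kb. In Foxp3ΔJag1 nodes the first 5 places were the same, from Bcl6 at 13.1 ± 1.34 to Mybl1 at 3.99 ± 2.46, followed by Rgs13 at 3.67 ± 3.28, S1pr2 at 3.06 ± 0.956 and Il21 at 0.366 ± 0.0510 (SD, n = 3 each).

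**Figure D4:**
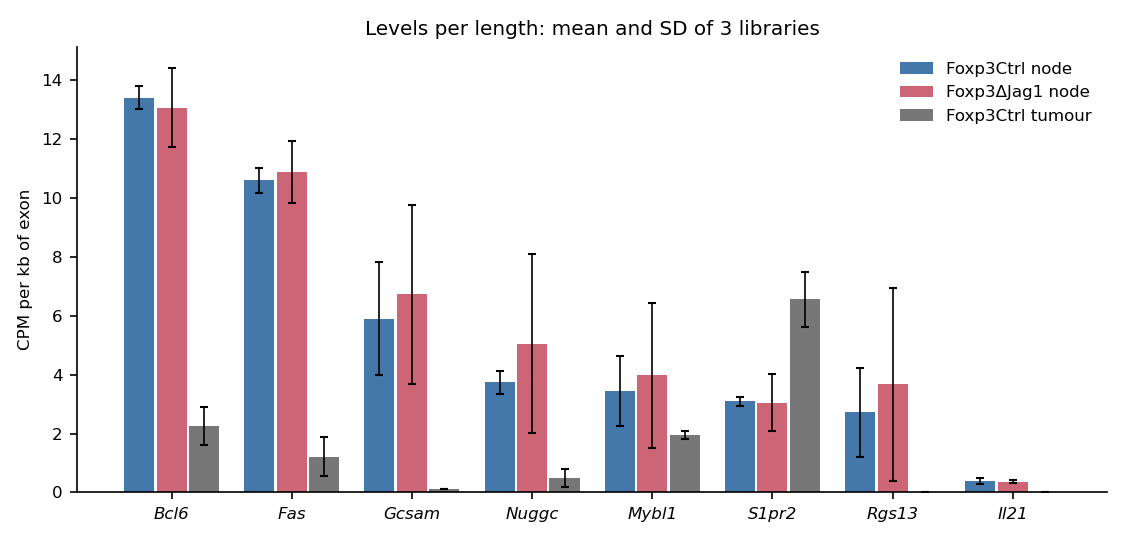
Bars are mean CPM per kb of exon for each gene in Foxp3Ctrl nodes, Foxp3ΔJag1 nodes and Foxp3Ctrl tumours, with SD over 3 libraries. Bcl6 and Fas lead in both node groups, S1pr2 leads in tumours at 6.56, and Rgs13 has no tumour bar because its count there was 0.

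The second comparison set the tumours of the control mice beside their nodes. All 8 members were called by edgeR's quasi-likelihood test, 7 lower and 1 higher in tumour, where 37.6% of 18566 genes tested were called lower and 35.6% higher. The members' median log2 fold change was -2.98, with Rgs13 entered at its bound or at its fitted value, against -0.05 for all genes. The B cell list fell in 12 of 12 genes, median -9.69, and the T cell list in 10 of 10, median -5.05. Both lists fell as 7 of the 8 members did, with medians further below 0 than that of the members. Their part in the members' change was not tested.

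Rgs13 had 0 counts in all 3 tumours, where 3 counts would be 0.0732 to 0.0934 CPM, against 498 counts summed over the control nodes. Set against 3 counts over the tumour group, it was at least 159.9-fold lower (adjusted p 0.000274, edgeR). Gcsam fell to 0.43, 0.39 and 0.34 CPM in tumours 1, 2 and 3, a log2 fold change of -5.62 ± 0.31 (SE, adjusted p 2.25e-06, edgeR). Il21 had 3, 0 and 4 tumour counts and a log2 fold change of -4.86 ± 0.65 (SE, adjusted p 0.000249, edgeR). Rgs13 and Il21 were thus at or near the limit of detection in tumour, and Gcsam rested on 11 to 16 counts a tumour.

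Bcl6, Nuggc and Fas fell and remained measurable. Bcl6 was at 18.6, 10.3 and 16.4 CPM in tumours, a log2 fold change of -2.52 ± 0.20 (SE, adjusted p 1.85e-05, edgeR). Nuggc was at 2.34, 0.952 and 0.778 CPM (-2.90 ± 0.40, SE, adjusted p 0.000340, edgeR) and Fas at 4.10, 1.73 and 1.68 CPM (-3.07 ± 0.35, SE, adjusted p 0.000123, edgeR). Tumour 1 was the highest of the 3 for each of these genes, and every tumour lay below every node.

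Mybl1 was nearest to its node level, at 9.80, 11.0 and 10.8 CPM in tumours against 11.9 to 24.6 CPM in control nodes. Its log2 fold change was -0.75 ± 0.23 (SE, adjusted p 0.0170, edgeR). The call was lost without Foxp3Ctrl node 1 (-0.71, adjusted p 0.0529, edgeR) or without Foxp3Ctrl node 3 (-0.56, adjusted p 0.0542, edgeR). The tumours agreed closely among themselves, and the nodes spread widely above them. Of its paralogues, Myb fell by 4.60 and Mybl2 rose by 0.89 on the log2 scale, both called by edgeR.

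S1pr2 was the member that rose. It was at 51.4, 60.1 and 45.2 CPM in tumours against 23.5 to 25.7 CPM in the control nodes, a log2 fold change of 1.14 ± 0.13 (SE, adjusted p 0.000124, edgeR) or 2.21-fold. All tumours lay above all 6 nodes, and per kb S1pr2 passed from the sixth place in control nodes to the first in tumours, at 6.56 ± 0.939 CPM per kb (SD, n = 3). S1PR2 is also known outside the B cell lineage. The other genes of its list, receptors of sphingosine phosphate and their signalling partners, were lower in 7 of 8, with 1 not called. S1pr1, the egress receptor that opposes it, was at 235 ± 2.24 CPM in control nodes and 13.02 ± 3.30 CPM in tumours (SD, n = 3 each), a log2 fold change of -4.11 (adjusted p 1.45e-06, edgeR). Endothelial genes were lower in 6 of 7, summing to 124 to 195.5 CPM in tumours and 609 to 814 CPM in control nodes. Melanocyte genes were higher in 8 of 8, summing to between 18533 and 24314 CPM in tumours, and their part in the rise of S1pr2 was not tested.

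The partners of the members mostly fell with them. In tumours 16 of the 20 germinal centre B cell partners were lower, 3 higher and 1 not called, with a median log2 fold change of -2.90. Pou2af1, the B cell coactivator of octamer factors, fell from 324 ± 37.8 to 0.136 ± 0.0455 CPM (SD, n = 3 each, adjusted p 8.67e-08, edgeR), and Spib, an ETS factor of B cells, from 361 ± 19.8 to 1.09 ± 0.166 CPM (SD, n = 3 each, adjusted p 8.24e-08, edgeR). Of the 15 follicular helper genes 12 were lower and 2 higher, and Cxcr5, the receptor that brings helper and B cells to the follicle, fell by 6.81 on the log2 scale (adjusted p 8.24e-08, edgeR). Of the 10 follicular dendritic cell genes 8 were lower and 2 higher, and Cxcl13, the ligand of CXCR5, fell by 6.94 (adjusted p 4.55e-06, edgeR).

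Receptors and downstream genes were less uniform. Il21r, the receptor of IL-21, fell from 223 ± 20.2 to 9.48 ± 1.54 CPM (SD, n = 3 each, adjusted p 2.20e-07, edgeR), and 4 of the 8 genes of its list were lower with 4 not called. In the FAS list 2 genes were higher, 2 lower and 5 not called. Fadd, the adaptor of FAS, rose by 0.36 and Fasl, its ligand, fell by 1.65 on the log2 scale (adjusted p 0.00946 and 0.0117, edgeR). Of 13 genes known to be repressed by BCL6, 5 were higher, 6 lower and 2 not called, median -0.17. Over all 18566 genes tested, 35.6% were called higher and 37.6% lower, with a median of -0.05. The split of this list is near those shares, and no result about BCL6 targets is read from it. Cd44 rose by 2.04 (adjusted p 3.34e-06, edgeR), whereas Gpr183, a guidance receptor for B cells, fell by 5.45 (adjusted p 6.97e-06, edgeR). Proliferation genes rose in 8 of 8, with a median of 1.90, in the same tumours in which Bcl6, Gcsam and Rgs13 were lower.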

How the data were processed

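Whole-tissue RNA was sequenced. The submitters' processing notes name Trimmomatic 0.36, STAR 2.5.2b, Subread 1.5.2 with featureCounts, and GRCm38, and the deposited values are raw counts per gene. The sources used here do not give the annotation or the strand setting. Of 13 samples, 9 libraries were used; 3 tumour columns match no sample and were not used, and the 4 Foxp3ΔJag1 tumours were not analysed here. All carry batch 1. Of 49315 identifiers, 49056 matched GENCODE M21.

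Genes were tested with edgeR 4.0.16 in R 4.3.3 (TMM, filterByExpr, robust quasi-likelihood, Benjamini-Hochberg over all genes, FDR 0.05), checked on simulated counts. The members and the 18 gene lists were chosen with earlier results of these data known. The named genes were all members, Jag1 and Foxp3, the smallest p-values of each list (up to 4 called, otherwise 2) and the 5 most similar genes outside the lists, and some of these are not reported here. Library names tie each control tumour to a node of the same mouse; deviations of such pairs correlated at -0.083, 0.127 and -0.0027. Alternatives were other normalizations, filters, DESeq2 1.42.0, limma-voom of limma 3.58.1, the replicate block and leaving out each library. The floor of 3 counts covers counting error only.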

Additional observations from a re-analysis of the deposited data

How the results depend on the processing

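No member was called between the node genotypes under any alternative, and 8 were called between tumour and node under each setting that kept all libraries, the pairing by replicate block included; leaving out 1 library gave 7 to 8. Without 1 library, the log2 fold changes by genotype ran from -0.13 to 0.002 for Bcl6, -0.31 to 0.13 for S1pr2, -0.31 to 0.0773 for Il21, -0.24 to 0.41 for Gcsam, -0.43 to 0.44 for Mybl1, -0.60 to 0.89 for Rgs13, -0.19 to 0.67 for Nuggc and -0.038 to 0.08 for Fas; the cause was not tested. Mybl1 between tumour and node ran from -0.97 to -0.56. In the nodes, deviations of libraries with the same number, 1, 2 and 3, correlated between the genotypes at -0.165, 0.034 and -0.124 over all genes tested. Nodes of equal number come from different mice by their codes, and the titles only number the nodes within each genotype. The replicate block between genotypes therefore has no known pairing behind it. These values do not settle whether equal numbers share an effect in the members, and no gain in precision is read from the block. With the replicate block the SE went from 0.76 to 0.30 for Rgs13 and from 0.50 to 0.22 for Mybl1, and it rose for Bcl6, Il21 and Fas. The replicate block left 0 members called and moved the calls over all genes from 7 to 11. Those calls were 44 with DESeq2, 16 without a filter and 6 to 21 without 1 library. The median over all genes in tumour against node was -0.11 with library size only and -0.12 without a filter. With 3 libraries a group, a difference of the size estimated for Rgs13 did not pass the test.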
